A study of Homo sapiens with 12 samples.

Results

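Homologous recombination and the Fanconi anemia pathway were followed through 39 genes, taken by symbol from the 28278 genes of the count table. All 39 were found and all passed the filter on low counts, at least 1 CPM (counts scaled to a common library size) in at least 3 libraries, in both cell lines. They comprise the BRCA mediators, strand exchange helpers, annealing and translocase factors, end resection factors, the dissolvasome with the helicases bound to it or to BRCA1, the Fanconi core complex, the FANCI and FANCD2 pair, structure-selective nucleases and the checkpoint kinases. In OVCAR3, 35 of the 39 genes had higher values in pools evolved under hydroxychloroquine (HCQ) than in control pools. The median log2 fold change was 0.43, but only RAD54L passed the threshold of the test across all genes. It did not pass when most single pools were left out, in fits that called at most 0.0743% of all genes higher. In CCL218 the median was 0.10 and no gene passed. FANCF was the only gene of the group with its evolved pools under the lowest control pool in each line. Counting each line alone, 12.3% of all genes in OVCAR3 and 17.4% in CCL218 were placed in this way. The OVCAR3 gap of FANCF was small (log2 fold change -0.22). When each library was corrected for the length and GC of transcripts, its pools overlapped, while its estimate stayed negative (-0.29).

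Homologous recombination repairs a broken chromosome by copying the intact sister chromatid, and is used mainly in S and G2 phase, when a sister is present. Broken ends are first resected to single strands, mediators led by BRCA2 prepare them for strand exchange, translocases remodel the joint, and dissolvases or nucleases separate the joined molecules. The Fanconi pathway recognises DNA crosslinks at stalled forks, attaches ubiquitin to FANCI and FANCD2, and hands the cut crosslink to recombination. The kinases ATM and ATR, through CHEK2 and CHEK1, hold the cell cycle while this proceeds.

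The labels give OVCAR3 as ovarian cancer cells and CCL218 as colorectal cancer cells. Each was grown as many small cultures on a 96-well plate, either as control (passage 19 in the labels) or as HCQ-evolved (passage 15), the latter through 15 exposures of 48 h to HCQ, a drug that raises lysosomal pH and blocks autophagy, each followed by recovery in fresh medium. Cells then spent 7 days without drug before polyA RNA was taken, so that the comparison addresses stable changes after selection. Each group had 3 libraries, named L, M and R for the left, middle and right of the plate, and each library was a pool of 31 wells. The pools of a group came from a plate of its own, so that plate, passage number and treatment cannot be told apart, and p-values measure only the spread between pools. In such bulk RNA, fewer cells carrying a transcript and less transcript per cell also cannot be told apart.

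The pools held 31147822 to 59965861 counts. The labels of the lines could not be settled from marker genes. In every library, 6 or 7 of 10 ovarian markers and 8 to 10 of 13 colorectal markers reached 1 CPM. Of 10 ovarian markers, SOX17 had no count in any of the 12 libraries, ESR1 and EMX2 stayed at or below 0.0519 CPM, and WT1 at or below 2.23 CPM, also in the libraries labelled OVCAR3. The intestinal genes VIL1 (76.8 to 279 CPM) and LGALS4 (130 to 1440 CPM) were present in all libraries of both labels. These genes were picked from the lists. Other ovarian markers reached 1 CPM in every library, and some colorectal markers did not. The names of the lines are therefore used as labels. The summed level of 13 colorectal markers ran from 952 to 1130 CPM in the OVCAR3 control pools and from 241 to 680 CPM in the evolved pools, and 6 of the 9 tested had log2 fold changes below 0 (median -0.93, 0 called by edgeR, 3 lower at an unadjusted p under 0.05). The summed ovarian markers ran from 421 to 618 CPM in control and from 670 to 826 CPM in evolved pools, although 4 of the 6 tested were below 0 (median -0.59, 0 called by edgeR, 2 lower and 1 higher at an unadjusted p under 0.05). In CCL218 the colorectal sums were 1320 to 1840 against 1390 to 1450 CPM, but 4 of the 9 tested markers were called higher (CDX2, CDH17, GPA33 and CEACAM5, list median 1.14), and the ovarian sums were 373 to 580 against 479 to 546 CPM, with 0 called. Their part in the results was not tested. Length bias also differed between pools: the rank correlation across genes of a pool's deviation from its line's mean with transcript length was 0.534 in OVCAR3 control M and 0.567 in HCQ-evolved R, and lay between -0.439 and -0.362 in the other OVCAR3 pools.

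The bases just before the start of the genes on which the results turn are shown for RAD54L, which passed the test in OVCAR3, for CHEK2, the next gene by p-value, and for FANCF, which had the opposite direction. Each is the 120 bases upstream of the RefSeq start in GRCh38.p14, read 5′ to 3′ on the gene's own strand: chr1:46247568-46247687 (plus strand), chr22:28741821-28741940 (minus strand) and chr11:22625824-22625943 (minus strand). Capitals mark CCAAT or its reverse complement ATTGG, the box bound by NF-Y, found often in promoters of cell cycle genes.
RAD54L: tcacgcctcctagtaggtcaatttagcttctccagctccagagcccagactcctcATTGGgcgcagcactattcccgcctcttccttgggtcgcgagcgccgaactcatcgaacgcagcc
CHEK2: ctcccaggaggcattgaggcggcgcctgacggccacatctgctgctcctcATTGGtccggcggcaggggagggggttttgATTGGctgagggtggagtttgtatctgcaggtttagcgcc
FANCF: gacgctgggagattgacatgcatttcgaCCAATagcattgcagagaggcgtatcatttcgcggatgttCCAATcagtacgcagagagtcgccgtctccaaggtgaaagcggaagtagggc
The box was present in all 3 promoters, whichever way the gene's values moved. RefSeq promoters were given for 35 of the 39 genes, and 14 of these (40.0%) held a CCAAT box on either strand within 250 bases upstream, against 35.3% of 9608 promoters of genes tested in OVCAR3. E2F-type sites, searched as TTTCCCGC, TTTGGCGC, TTTCGCGC or TTTGCCGC on both strands, were found upstream of FANCA and FANCC only, 5.7% of the 35 against 4.6%. CHR-type elements, searched as TTTGAA or TTCGAA on both strands, were in 3 of the 35 (8.6%) against 9.3%. A match is a description of the letters and not a binding site.

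In OVCAR3, 35 of the 39 genes (89.7%) had log2 fold changes of HCQ-evolved over control above 0, against 51.6% of all genes, and they ran from -0.22 to 1.67 over the 39 genes, while the median over all 12204 genes tested was 0.02. Of the 39 genes, 1 (2.56%) was called higher at an adjusted p under 0.05, where 0.647% of all genes were, and 0 were called lower, where 1.21% of all genes were. At an unadjusted p under 0.05, 16 (41.0%) were higher, against 8.38% of all genes, and 0 were lower, against 7.87%. The 3 evolved pools lay wholly above the 3 control pools for 20 genes (51.3%), against 13.5% of all genes, and wholly below for FANCF alone, against 12.3%. FANCB is among the 16 and the 20, but its control pools were all under 1 CPM (0.74, 0.937 and 0.868) and it passed the filter only through the evolved pools (1.30, 1.11 and 1.91 CPM), so that its place in both counts was set by the filter. It drops out of the fits that leave out an evolved pool. The 4 genes with log2 fold changes under 0 were RAD51D, FANCF, MUS81 and RAD52, of which RAD51D and FANCF were lowest, at -0.22 each.

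**Figure D1:**
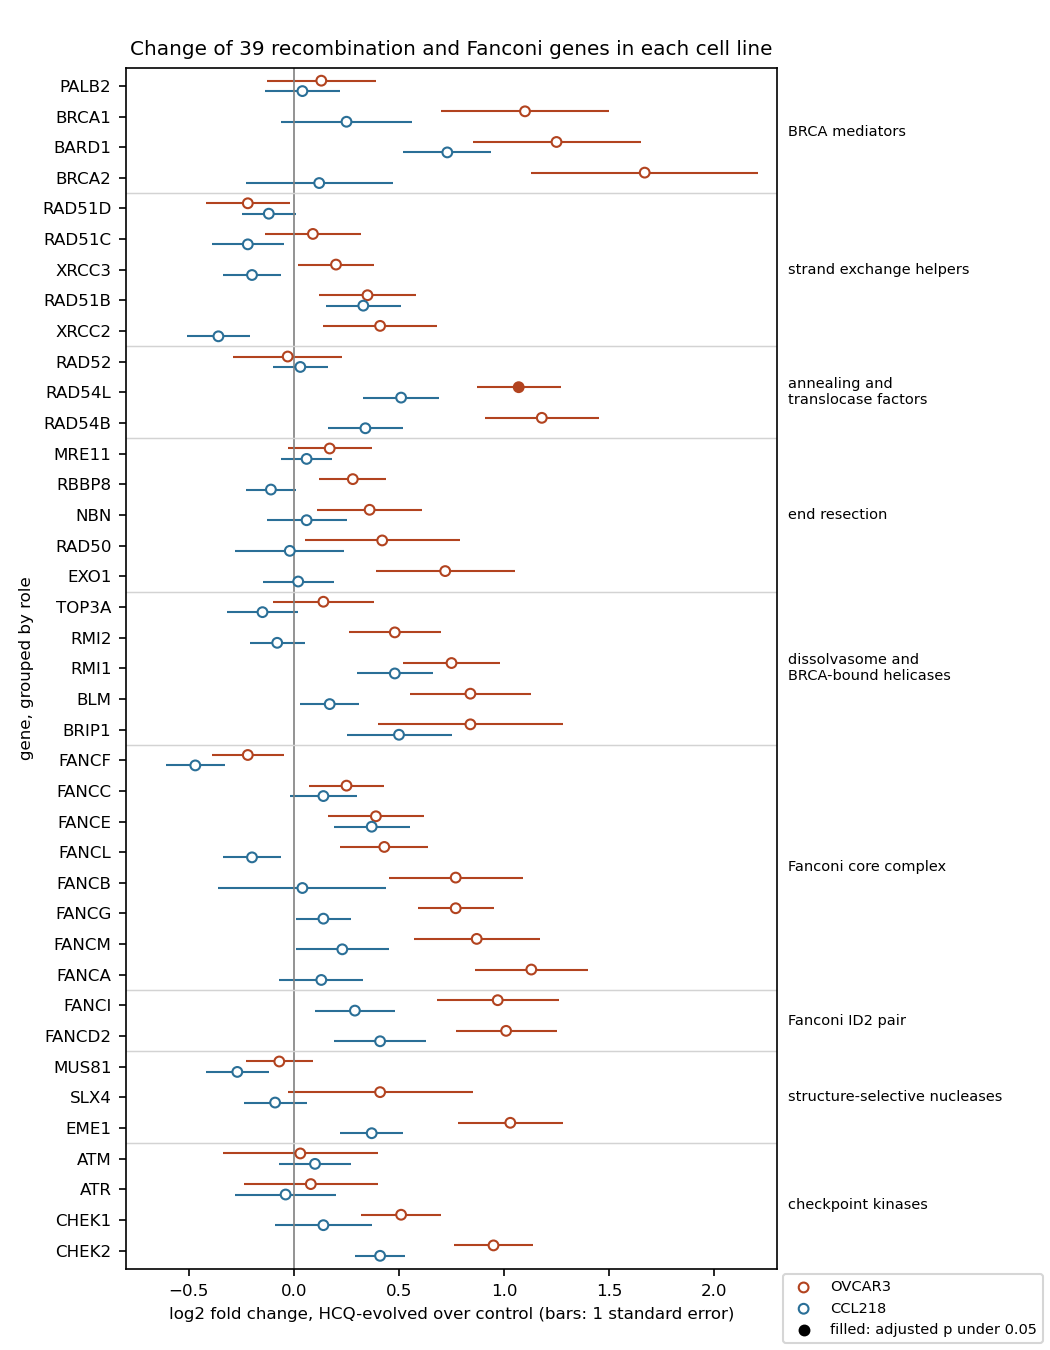
Log2 fold change of HCQ-evolved over control pools for each of the 39 genes, grouped by role, in OVCAR3 and CCL218. Points are edgeR estimates with bars of 1 standard error, and the filled point, RAD54L in OVCAR3 at 1.07, is the only one with an adjusted p under 0.05.

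The annealing and translocase factors held the called gene. RAD54L (ENSG00000085999.13, chr1:46246461-46278480, hg38) is a DNA translocase, a motor that works in strand exchange with the sister. Its OVCAR3 levels were 11.3, 13.8 and 14.6 CPM in control pools L, M and R and 25.1, 26.7 and 31.9 CPM in the evolved pools. Every evolved pool was well above every control pool, and RAD54L rose by a log2 fold change of 1.07 ± 0.20 (SE; adjusted p = 0.0447, edgeR quasi-likelihood test). The call was lost when any OVCAR3 pool other than HCQ-evolved R was left out (adjusted p from 0.109 to 0.182, log2 fold change from 0.97 to 1.14), and without HCQ-evolved R the adjusted p was 0.0289. These fits leave a group with 2 pools and share the estimate of the spread between groups. They called 1.92% of all genes higher without HCQ-evolved R, and at most 0.0743% without any other pool. In CCL218 the levels were 13.7, 13.7 and 19.8 CPM in control and 22.8, 21.8 and 22.8 CPM in evolved pools. These pools were again apart, at a log2 fold change of 0.51 ± 0.18 and an adjusted p of 0.128. On the other strand, 26.2% of the exonic bases of RAD54L overlap LRRC41, whose log2 fold change in OVCAR3 was -0.15 (adjusted p = 0.8).

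RAD54B, the paralog of RAD54L, had OVCAR3 levels of 5.54, 9.37 and 7.88 CPM in control and 14.2, 15.9 and 21.5 CPM in evolved pools. Its log2 fold change of 1.18 ± 0.27 was as large as that of RAD54L but less precise (adjusted p = 0.0747). In CCL218 it stood at 10.1, 13.2 and 15.5 CPM against 15.7, 16.6 and 16.9 CPM, pools that were just apart (log2 fold change 0.34, adjusted p = 0.271). Most of its exonic bases, 65.5%, are shared on the same strand with FSBP, so that the reads of these genes are not certain to be separated. RAD52, an annealing protein that is not a motor, had no such difference: 4.82, 7.52 and 6.61 CPM in OVCAR3 control against 5.68, 5.35 and 7.57 CPM in evolved pools, and 8.48, 8.85 and 9.29 against 8.61, 9.25 and 9.30 CPM in CCL218. Its pools overlapped in both lines, at log2 fold changes of -0.03 ± 0.26 and 0.03 ± 0.13.

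Among the BRCA mediators, BRCA2 and BARD1 had the highest estimates of the 39 genes in OVCAR3, resting in part on evolved pool R. BRCA2, the central mediator of strand exchange, stood at 11.5, 27.9 and 14.9 CPM in OVCAR3 control and at 32, 35.8 and 104 CPM in evolved pools. All evolved pools were above the control pools, but pool R was far above the rest, and the log2 fold change was 1.67 ± 0.54 (adjusted p = 0.172). Without pool R it was 0.91 (adjusted p = 0.173). BRCA2 in CCL218 was 16.9, 41.4 and 32 CPM in control and 22.8, 33.3 and 42.0 CPM in evolved pools, which overlapped (log2 fold change 0.12 ± 0.35).

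BRCA1, the ubiquitin ligase that promotes resection and recruits PALB2 and BRCA2, was also highest in evolved pool R. It stood at 14.8, 29.2 and 18.8 CPM in OVCAR3 control and 32.8, 30.5 and 70.8 CPM in evolved pools, with control M just below the lowest evolved pool (log2 fold change 1.10 ± 0.40, adjusted p = 0.225, and 0.60 without HCQ-evolved R). In CCL218, 21.6, 51.5 and 45.1 CPM in control overlapped 40.0, 47.3 and 53.1 CPM in evolved pools (log2 fold change 0.25 ± 0.31). BARD1, the partner that BRCA1 needs for ligase activity, was 7.07, 9.76 and 7.92 CPM in OVCAR3 control and 12.6, 13.1 and 33.4 CPM in evolved pools (log2 fold change 1.25 ± 0.40, adjusted p = 0.172, and 0.64 without HCQ-evolved R). In CCL218 it was 8.06, 13.7 and 12.7 CPM against 17.2, 20.1 and 20 CPM. BARD1 thus had evolved pools above control pools in both lines, and its log2 fold change of 0.73 ± 0.21 was the highest of the 39 genes in CCL218 (adjusted p = 0.0948). With plate position as a replicate block, it became 0.76 with an adjusted p of 0.0185 (edgeR). The same block took away the OVCAR3 call of RAD54L (adjusted p = 0.138). PALB2, the bridge from BRCA1 to BRCA2, had overlapping pools in both lines, at log2 fold changes of 0.13 and 0.04.

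**Figure D2:**
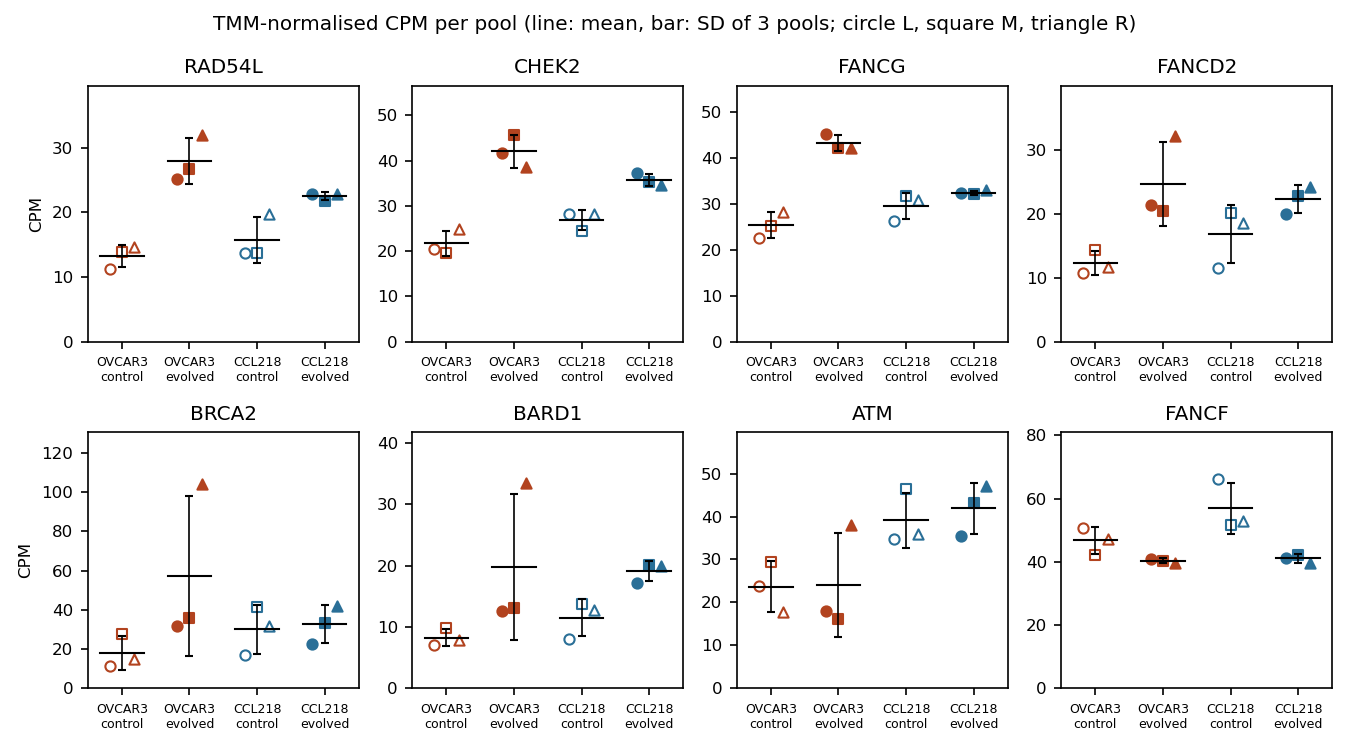
TMM-normalised CPM of 8 genes in each pool of the 4 groups, with a line at the mean and a bar of 1 SD over the 3 pools. The evolved OVCAR3 pools of RAD54L (25.1 to 31.9 CPM) and CHEK2 (38.5 to 45.7 CPM) lie together above control, while pool R stands apart from L and M for BRCA2 (104 CPM), BARD1 (33.4 CPM) and ATM (38.0 CPM), and FANCF lies below control in both lines.

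Among the checkpoint kinases, the effectors had higher estimates than the kinases upstream of them in OVCAR3. CHEK2, the effector of ATM, stood at 20.4, 19.7 and 25 CPM in OVCAR3 control and 41.7, 45.7 and 38.5 CPM in evolved pools. Its pools were tight and far apart, yet the adjusted p of 0.0517 was just past the threshold (log2 fold change 0.95 ± 0.19). Leaving out HCQ-evolved R brought the adjusted p to 0.0248, and leaving out any other OVCAR3 pool brought it to between 0.153 and 0.197. The fit without R called 1.92% of all genes higher, and each of the others at most 0.0743%. In CCL218, CHEK2 was 28.1, 24.5 and 28.2 CPM in control and 37.2, 35.3 and 34.5 CPM in evolved pools, again apart (log2 fold change 0.41 ± 0.12, adjusted p = 0.101).

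CHEK1, the effector of ATR, was 34.1, 46.4 and 39.9 CPM in OVCAR3 control and 54.8, 55.7 and 60.9 CPM in evolved pools. These were also apart, at a smaller log2 fold change of 0.51 ± 0.19 (adjusted p = 0.228). In CCL218 its evolved pools, at 55.0, 56.7 and 62.8 CPM, fell within the control range of 34.3, 59.7 and 64.2 CPM (log2 fold change 0.14 ± 0.23). ATM, the kinase of double-strand breaks, was 23.8, 29.5 and 17.7 CPM in OVCAR3 control and 18.1, 16.2 and 38.0 CPM in evolved pools. Evolved pools L and M were at the low end of control and only R was above it, so that the log2 fold change of 0.03 ± 0.37 averaged unlike pools, and it was -0.47 without HCQ-evolved R. In CCL218 ATM stood at 34.8, 46.3 and 36.0 CPM against 35.4, 43.2 and 47.1 CPM, which overlapped (0.10 ± 0.17). ATR, the kinase of stalled forks, overlapped in both lines, at log2 fold changes of 0.08 and -0.04.

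The pair at the centre of the Fanconi pathway had like estimates in OVCAR3. FANCD2 was 10.8, 14.4 and 11.7 CPM in control and 21.3, 20.5 and 32.2 CPM in evolved pools, all apart (log2 fold change 1.01 ± 0.24, adjusted p = 0.0872). Its partner FANCI was 70.9, 98.3 and 74.4 CPM in control and 128, 121 and 230 CPM in evolved pools (log2 fold change 0.97 ± 0.29, adjusted p = 0.145). Both were highest in evolved pool R. In CCL218 FANCD2 ran from 11.5, 20.1 and 18.6 CPM to 20, 22.7 and 24.2 CPM, and FANCI from 71.5, 114 and 104 CPM to 107, 119 and 126 CPM. The CCL218 pools of both overlapped, with control M above evolved L for each, at log2 fold changes of 0.41 ± 0.22 and 0.29 ± 0.19.

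In the Fanconi core complex, the ubiquitin ligase assembly that acts on this pair, 7 of 8 genes had positive log2 fold changes in OVCAR3 (median 0.60) and 0 were called. FANCG was at 22.7, 25.2 and 28.2 CPM in OVCAR3 control and 45.3, 42.2 and 42.3 CPM in evolved pools (log2 fold change 0.77 ± 0.18, adjusted p = 0.0742). Pool R was not above the others for FANCG. In CCL218 it was 26.3, 31.7 and 30.8 CPM against 32.4, 32.2 and 33.0 CPM, apart by a narrow gap (0.14 ± 0.13, adjusted p = 0.526). FANCA, which FANCG binds, was 11.0, 16.3 and 12.2 CPM in OVCAR3 control and 24.6, 22.9 and 38.7 CPM in evolved pools (log2 fold change 1.13 ± 0.27, adjusted p = 0.088). FANCA in CCL218 was 17.8, 29.7 and 27.0 CPM against 24.8, 27.8 and 28.8 CPM, which overlapped (0.13 ± 0.20). On the other strand, 27.4% of its exonic bases overlap ZNF276, whose log2 fold changes were negative, at -0.56 in OVCAR3 (adjusted p = 0.193) and -0.75 in CCL218 (adjusted p = 0.0464).

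FANCF, an adaptor within the same complex, went the other way. It stood at 50.8, 42.2 and 47.3 CPM in OVCAR3 control and 41.0, 40.4 and 39.5 CPM in evolved pools, a small gap (log2 fold change -0.22 ± 0.17, adjusted p = 0.589). In CCL218 it stood at 66.1, 51.7 and 52.9 CPM in control and 41.3, 42.3 and 39.5 CPM in evolved pools, a clearer gap (-0.47 ± 0.14, adjusted p = 0.0957). Neither passed the test. It is an intronless gene in the annotation used (chr11:22622533-22625823, minus strand, 3291 bases). The other core genes, FANCB, FANCC, FANCE, FANCL and the anchor FANCM, ran from 0.25 to 0.87 on the log2 scale in OVCAR3, and from -0.20 to 0.37 in CCL218. Of these only FANCE had evolved pools above control in both lines.

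Among the structure-selective nucleases, enzymes that cut branched DNA, EME1 had the highest estimate in both lines. EME1, the partner of MUS81, was 4.70, 3.26 and 4.02 CPM in OVCAR3 control and 7.02, 7.34 and 10.2 CPM in evolved pools (log2 fold change 1.03 ± 0.25, adjusted p = 0.0896). In CCL218 it was 5.47, 5.23 and 4.80 CPM against 6.25, 6.50 and 7.21 CPM, apart in that line as well (0.37 ± 0.15, adjusted p = 0.19). MUS81, the catalytic subunit, was 65.9, 62.3 and 65.0 CPM in OVCAR3 control and 65.1, 60.4 and 58.8 CPM in evolved pools, and the log2 fold change was -0.07 ± 0.16. In CCL218 it was 63.5, 48.2 and 50.7 CPM against 49.6, 42.5 and 42.2 CPM (-0.27 ± 0.15). The subunits of this enzyme had estimates of opposite sign in each line, but the pools of MUS81 overlapped in both. The OVCAR3 estimate of MUS81 lay within its standard error of 0. It was 0.05 when each library was corrected for the length and GC of transcripts. SLX4, the scaffold of these nucleases, was 13.8, 14.1 and 8.39 CPM in OVCAR3 control and 11.9, 8.68 and 27.6 CPM in evolved pools, where pool R alone was high (0.41 ± 0.44). In CCL218 SLX4 overlapped, at 20.8, 22.5 and 18.2 CPM against 16.5, 20.1 and 21.1 CPM (-0.09 ± 0.15).

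The dissolvasome takes apart joined molecules without exchange. RMI1, a scaffold of this complex, was 10.4, 17.4 and 15.8 CPM in OVCAR3 control and 23.4, 23.0 and 26.9 CPM in evolved pools (log2 fold change 0.75 ± 0.23, adjusted p = 0.161). It was 16.0, 21.5 and 24.9 CPM against 28.5, 30.2 and 28.2 CPM in CCL218 (0.48 ± 0.18, adjusted p = 0.155), so that its pools were apart in both lines. BLM, the helicase of the complex, was 19.1, 22.5 and 16.7 CPM in OVCAR3 control and 27.9, 26.3 and 49.9 CPM in evolved pools (0.84 ± 0.29, adjusted p = 0.204). In CCL218 BLM ran from 23.3, 29.0 and 26.1 CPM to 27.5, 28.9 and 31.9 CPM, with overlap (0.17 ± 0.14). RMI2 was lowest, not highest, in evolved pool R in OVCAR3: 25.9, 21.0 and 25.7 CPM in control, then 39.3, 36.2 and 25.9 CPM, with R at the top of the control range (0.48 ± 0.22, adjusted p = 0.334). In CCL218 RMI2 was 28.3, 24.5 and 27.7 CPM against 28.2, 23.7 and 24.1 CPM (-0.08 ± 0.13). TOP3A, the topoisomerase, and BRIP1, the helicase bound to BRCA1, overlapped in both lines, at 0.14 and 0.84 in OVCAR3 and -0.15 and 0.50 in CCL218, and BRIP1 in OVCAR3 was 0.14 without HCQ-evolved R.

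End resection factors and strand exchange helpers held no gene with an unadjusted p under 0.05 in OVCAR3. EXO1, the nuclease of long resection, was 10.3, 16.2 and 11.0 CPM in OVCAR3 control and 16.9, 14.3 and 30.7 CPM in evolved pools, with overlap (log2 fold change 0.72 ± 0.33, adjusted p = 0.345). In CCL218 it was 14.9, 19.9 and 21.1 CPM against 17.4, 18.7 and 20.8 CPM (0.02 ± 0.17). RBBP8, which encodes the resection factor CtIP, was 38.4, 39 and 37.0 CPM in OVCAR3 control and 46.6, 43.5 and 48.6 CPM in evolved pools. These were apart by a small step (0.28 ± 0.16, adjusted p = 0.457), while in CCL218 51.8, 48.7 and 51.8 CPM against 44.6, 47.3 and 48.7 CPM just overlapped (-0.11 ± 0.12). NBN, of the complex that senses breaks with MRE11 and RAD50, was 44.8, 60.0 and 49.2 CPM in OVCAR3 control and 52.5, 56.8 and 88.4 CPM in evolved pools (0.36 ± 0.25). In CCL218 NBN was 55.5, 82.0 and 87.2 CPM against 70.5, 79.0 and 84.3 CPM (0.06 ± 0.19). MRE11 and RAD50 overlapped in both lines, at 0.17 and 0.42 in OVCAR3 and 0.06 and -0.02 in CCL218. Of the exonic bases of RAD50, 91.0% are shared with another gene on the same strand, so that its reads are not certain to be separated.

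The strand exchange helpers act beside the BRCA mediators on single-stranded DNA. XRCC2 was 15.0, 15.7 and 10.4 CPM in OVCAR3 control and 15.9, 14.2 and 24.3 CPM in evolved pools, with overlap (log2 fold change 0.41 ± 0.27). In CCL218 its evolved pools, at 14.2, 14.9 and 18.7 CPM, lay below the control pools, at 20.6, 21.8 and 18.9 CPM (-0.36 ± 0.15, adjusted p = 0.192). RAD51B was low in every group, at 4.51, 3.78 and 4.21 CPM in OVCAR3 control, 5.01, 6.32 and 4.60 CPM in OVCAR3 evolved, 3.19, 3.56 and 3.75 CPM in CCL218 control and 4.91, 3.99 and 4.33 CPM in CCL218 evolved pools. Its pools were apart in both lines by narrow gaps, at 0.35 ± 0.23 and 0.33 ± 0.18. XRCC3 was 22.9, 20.1 and 19.8 CPM against 27.1, 22.7 and 22.6 CPM in OVCAR3 (0.20 ± 0.18). In CCL218 it was 28.4, 25.9 and 27.8 CPM against 26.5, 20.3 and 24.5 CPM (-0.20 ± 0.14). RAD51C and RAD51D overlapped in both lines, between -0.22 and 0.09, and the median of the 5 helpers was 0.20 in OVCAR3 and -0.20 in CCL218.

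In CCL218, 26 of the 39 genes had log2 fold changes above 0 (66.7%), against 48.3% of the 12241 genes tested, and the median of 0.10 stood beside -0.02 over all genes. None was called higher, where 3.82% of all genes were, or lower, where 2.64% were, by edgeR. With plate position as a replicate block, 1 was called higher (BARD1), while the share over all genes became 7.82%. By DESeq2, BARD1 and CHEK2 were called higher (5.13%), where 9.02% of all genes were, and FANCF lower, as were 1068 of all 12241 genes. At an unadjusted p under 0.05, 5 were higher (12.8%) and 2 lower (5.13%), against 12.5% and 12.7% of all genes. Evolved pools lay above control pools for 9 genes (23.1%), against 18.5%, and below for XRCC2 and FANCF (5.13%), against 17.4%. The 9 were BARD1, RAD51B, RAD54L, RAD54B, RMI1, FANCE, FANCG, EME1 and CHEK2. All were also among the 20 in OVCAR3, but the share of all genes apart upward in both lines was not computed. Control L decided part of this: without it the median was -0.05, with 2 genes called higher (BARD1 and CHEK2, adjusted p = 0.0114 and 0.0143) and 1 lower (FANCF, adjusted p = 0.017), in a fit that called 13.6% of all genes higher and 1401 of 12102 lower.

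Whether the lines differed was tested as the CCL218 change minus the OVCAR3 change in one fit of all 12 libraries. The difference was below 0 for 35 of the 39 genes, with a median of -0.42 beside -0.03 over 12613 genes, and none was called, where 0.690% of all genes were called higher and 0.182% lower. At an unadjusted p under 0.05, 9 of the 39 were lower, against 3.70% of all genes, and 0 were higher, against 5.41%. They were FANCA (-0.98 ± 0.34), RAD54B (-0.82 ± 0.31), XRCC2 (-0.74 ± 0.31), EME1 (-0.64 ± 0.27), FANCG (-0.62 ± 0.18), FANCL (-0.61 ± 0.24), RAD54L (-0.54 ± 0.24), CHEK2 (-0.53 ± 0.20) and RBBP8 (-0.37 ± 0.16). FANCG had the smallest p of these (0.00581, adjusted p = 0.188). DESeq2 called FANCG and RBBP8, and edgeR called FANCA once the trend described further on was removed.

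Genes of the cell cycle were also higher in evolved OVCAR3 pools. All 25 S phase genes had log2 fold changes above 0 in OVCAR3 (median 0.48), of which RRM2, a subunit of the reductase that makes DNA precursors, was called higher (1.08 ± 0.20, adjusted p = 0.0484). All 20 G2/M genes were above 0 as well (median 0.94), and 5 were called higher, CDK1, CCNB1, CCNB2, AURKA and CDC20, which drive mitotic entry and exit, with CDK1 at 1.29 ± 0.21 (adjusted p = 0.0318). In CCL218 the S phase median was 0.02, with 14 of 25 above 0 and none called by edgeR, while the G2/M median was 0.39, with 19 of 20 above 0 and CDK1 and HMMR called. Over all genes, 51.6% in OVCAR3 and 48.3% in CCL218 were above 0, and 0.647% and 3.82% were called higher. The medians of the recombination genes, 0.43 and 0.10, thus stood nearer to the S phase than to the G2/M values in both lines. A further 68 genes of recombination, the Fanconi pathway and checkpoints, of which 64 were tested in OVCAR3 and 62 in CCL218, had lower medians of 0.17 and 0.03, with none called by edgeR in either line. At an unadjusted p under 0.05, 16 of the 64 were higher and 2 lower in OVCAR3, and 3 of the 62 higher and 2 lower in CCL218. Over all genes, 8.38% were higher and 7.87% lower at that threshold in OVCAR3, and 12.5% and 12.7% in CCL218. The 10 end joining genes, which repair breaks without a template, had medians of 0.18 and 0.03, with none called by edgeR and 6 of 10 above 0 in each line. At an unadjusted p under 0.05, 3 of these were higher in OVCAR3, and 1 was higher and 1 lower in CCL218. How far the cell cycle genes account for the recombination genes was not tested.

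By pool, the median deviation of the 39 genes from the control mean was -0.15, 0.21 and -0.05 in OVCAR3 control L, M and R and 0.37, 0.26 and 0.79 in the evolved pools. The evolved pools were all above the control pools, but M was close to control M. The G2/M genes were at 0.80, 0.84 and 1.21 in the evolved pools, with at most 0.11 in control. In CCL218 the 39 genes were at -0.17, 0.10 and 0.09 in control and 0.02, 0.12 and 0.24 in evolved pools, which overlapped. Without evolved R the OVCAR3 log2 fold changes of BLM, EXO1 and FANCI were 0.48, 0.32 and 0.61, and those of XRCC2 and SLX4 were 0.14 and -0.24. The highest pool of each OVCAR3 group for the 39 genes, control M and evolved R, was the one with a positive trend with transcript length.

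**Figure D3:**
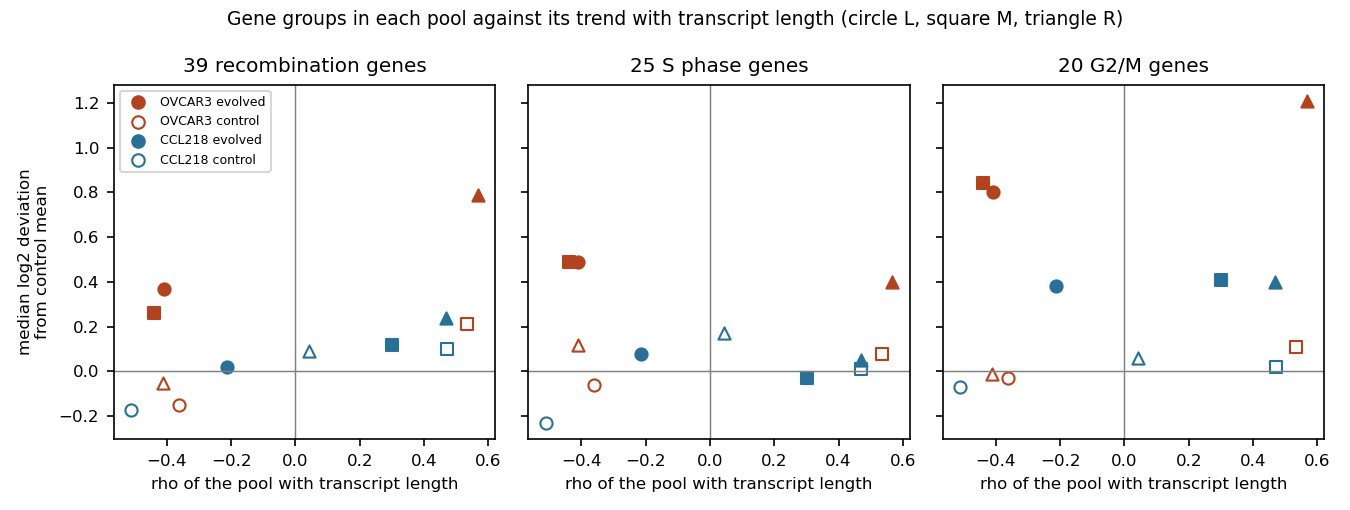
Median log2 deviation from the control mean (vertical axis) in each pool for the 39 recombination genes, 25 S phase genes and 20 G2/M genes, against the rank correlation of that pool with transcript length (horizontal axis, no unit). OVCAR3 evolved pools lie above 0 in all panels, and control M (0.21) and evolved R (0.79) are highest for the recombination genes and lie to the right.

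Evolved pool R was marked by its positive trend with length. How far this trend accounts for high values of long transcripts in that pool was not tested. Of the 11 genes with transcripts of 6 kb or more (BRCA1, BRCA2, RAD51D, RAD50, MRE11, BRIP1, TOP3A, FANCM, SLX4, ATM and ATR), evolved pool R was the highest of the evolved OVCAR3 pools for 10, and for 19 of the 28 shorter ones. The median log2 fold change was 0.41 for the long and 0.50 for the short ones in OVCAR3. When a smooth trend with transcript length and GC content was removed from each library, the OVCAR3 median of the 39 genes was 0.40, and 11 were called higher (28.2%), where 4.63% of all genes then were. These were BRCA1, BRCA2, RAD54L, RAD54B, RMI2, FANCA, FANCD2, FANCG, FANCI, EME1 and CHEK2, with FANCA at 1.14 (adjusted p = 0.00792) and CHEK2 at 0.94 (adjusted p = 0.00734). With the trend removed, pools were apart upward for 22 of the 39 (56.4%), against 18.7% of all genes, and downward for none, against 16.5%. The OVCAR3 pools of FANCF then overlapped, while its log2 fold change stayed negative, at -0.29 (adjusted p = 0.269, edgeR). Using only the 4 OVCAR3 pools with a negative trend, a choice made after the pools had been seen, 10 genes were called higher (26.3%), where 3.20% of all genes were. In CCL218 the trend-removed median was 0.02 and BARD1 (0.58, adjusted p = 0.0136) and CHEK2 (0.44, adjusted p = 0.0131) were called, 5.13% of the 39, where 10.3% of all genes were called higher.

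**Figure D4:**
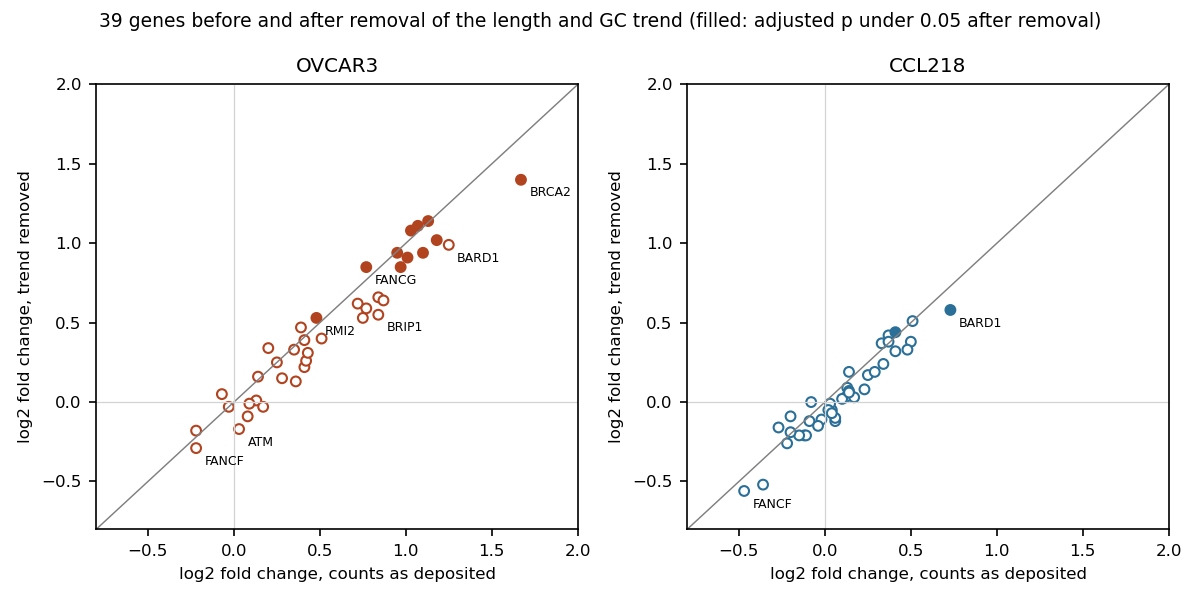
Log2 fold change of each of the 39 genes with the trend in length and GC removed (vertical axis) against the value from the counts as deposited (horizontal axis), with the line of equality. Filled points, 11 in OVCAR3 and 2 in CCL218, have an adjusted p under 0.05 after removal, and BRCA2 moves from 1.67 to 1.40 in OVCAR3.

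Levels were compared between genes per kilobase of transcript. MUS81 was highest in control pools, at 27.2 CPM per kb in OVCAR3 and 22.9 in CCL218, and FANCI was highest in evolved pools, at 33.7 and 24.8. In OVCAR3 FANCI stood at 17.1 CPM per kb in control, close to FANCL (17.8) and RMI2 (17). FANCM and FANCB were lowest throughout, from 0.391 to 0.715 and from 0.281 to 0.479 CPM per kb. At that depth FANCB had as few as 26 counts in a pool, in CCL218 HCQ-evolved L (0.56 CPM). In OVCAR3 its lowest pool was at 0.74 CPM, and its log2 fold change of 0.77 had a standard error of 0.32.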

How the data were processed

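PolyA RNA of 12 libraries was measured, 3 pools for each of 4 groups. The authors deposited raw read counts for each gene: STAR alignment (hg38), RmDup for duplicates, then featureCounts. Removal of duplicates lowers the counts of abundant genes most. The strand setting and annotation were not given in the sources used here, so that genes overlapping on opposite strands may share reads. Of the 39 genes, 8 share over 10% of their exonic bases with another gene. On the same strand these are RAD50 (91.0%) and RAD54B (65.5%). On the other strand they are XRCC3 (34.2%), FANCA (27.4%), FANCL (27.3%), RAD54L (26.2%), EME1 (23.2%) and CHEK1 (18.2%). In that order, the OVCAR3 log2 fold changes of the other-strand partners were 0.17 (KLC1), -0.56 (ZNF276), 0.58 (VRK2), -0.15 (LRRC41), -0.2 (LRRC59) and -0.1 (STT3A).

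Groups were taken from the sample titles. Counts were scaled by TMM within each line. Each line was fitted alone in edgeR 4.0.16 under R 4.3.3 (quasi-likelihood F test, robust, legacy mode), on genes reaching 1 CPM in 3 or more libraries, with Benjamini-Hochberg adjustment over all genes tested and a threshold of 0.05. The difference between lines was an interaction in a fit of all libraries. DESeq2 1.42.0, limma 3.58.1 (voom), other scalings and filters, a replicate block for plate position, each pool left out in turn, and a spline trend with transcript length and GC content (GENCODE, 91.1% of symbols matched) taken out as an offset were the alternatives. The fits were tested on simulated counts with known changes.

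Deviations of same-position control and evolved pools from their group means correlated at 0.563, 0.293 and 0.231 in CCL218. In OVCAR3 they correlated at 0.444, -0.716 and -0.52. Control and evolved pools came from separate plates and the correlations are from the same counts, so that they do not establish a pairing.

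The 39 genes and the lists beside them were chosen with earlier results of these data known. Genes given per pool were those that passed the threshold and the 3 genes of each role with the smallest unadjusted p over both lines. Genes of other lists were named where they passed the threshold, at most 6 per list. The genes used to check the line labels, those sharing exons with the 39, and those whose call changed under an alternative were named for those values.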

Additional observations from a re-analysis of the deposited data

How the results depend on the processing

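The OVCAR3 count of 1 gene called higher (RAD54L) was 0 without normalization factors and with the replicate block, 5 without the filter on low counts, 11 by DESeq2, 2 by limma voom, 11 with all 12 libraries in the fit, 11 with the length and GC trend removed, 5 with that trend removed and the replicate block, 10 with only the 4 libraries tilted to short transcripts, and 0 to 2 with a pool left out; it was 1 with RLE size factors and with at least 5 CPM. The share of all genes called higher, 0.647% as reported, was then 0.533%, 0.139%, 1.13%, 4.44%, 0.869%, 4.42%, 4.63%, 1.70% and 3.20% in the order of the alternatives named before the pools left out. With a pool left out that share was 0% to 1.92%, with RLE size factors 0.647% and with at least 5 CPM 0.548%. The control and evolved pools of a line share only a position, and no pairing is read from the block in either line. None of these called a gene lower in OVCAR3, and the median stayed between 0.35 and 0.54. The CCL218 count of 0 called higher was 2 by DESeq2, 1 with the replicate block, 2 with the trend removed, 3 with trend removed and block, and 0 to 2 with a pool left out, while 9.02%, 7.82%, 10.3%, 9.62% and up to 13.6% of all genes were called higher, and the count called lower was 1 by DESeq2, 1 with trend removed and block, and 0 to 1 with a pool left out. Beside BARD1, the block changed no CCL218 call in the fit of the counts as deposited, and in the trend-removed fit it added RAD54L higher and FANCF lower. The CCL218 median ran from -0.05 to 0.19 with a pool left out. For the difference between lines, DESeq2 called 2 genes lower and the trend-removed fit 1. The cause of these shifts was not tested.

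Signs turned mostly for genes with estimates near 0, but SLX4 (0.41) and RAD50 (0.42) in OVCAR3 also turned. In OVCAR3, RAD52 was 0.01 without the filter. ATM was -0.05 by voom, -0.07 with the block, -0.17 with the trend removed, -0.18 with trend and block and -0.28 with the 4 tilted libraries. With the trend removed, RAD51C was -0.01, MRE11 -0.03, MUS81 0.05 and ATR -0.09, and with the block added MRE11 was -0.02, MUS81 0.05, ATR -0.09 and PALB2 -0.01. With the 4 tilted libraries ATR was -0.03, PALB2 -0.10 and SLX4 -0.11. In CCL218, RAD50 was 0.00 without the filter and 0.03 by voom and with the block. FANCB was -0.08 by voom, -0.04 with the block, -0.07 with the trend removed and -0.15 with both. With the trend removed and with trend and block, PALB2 was -0.05 and -0.04, RAD52 -0.01 and -0.01, MRE11 -0.12 and -0.11, NBN -0.10 and -0.10, and EXO1 -0.05 and -0.05, and RMI2 was 0.00 with both.

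With a pool left out in OVCAR3, RAD52 ran from -0.19 to 0.11, ATM from -0.47 to 0.25, RAD51C from -0.09 to 0.18, ATR from -0.27 to 0.33, PALB2 from -0.18 to 0.30, RAD50 from -0.06 to 0.69, TOP3A from -0.03 to 0.35 and SLX4 from -0.24 to 0.71. In CCL218, RAD50 ran from -0.27 to 0.17, FANCB from -0.31 to 0.37, PALB2 from -0.14 to 0.16, RAD52 from -0.01 to 0.07, NBN from -0.13 to 0.18, EXO1 from -0.12 to 0.12, BRCA1 from -0.05 to 0.50, BRCA2 from -0.17 to 0.43, FANCA from -0.07 to 0.28, FANCC from -0.01 to 0.24, CHEK1 from -0.10 to 0.30, TOP3A from -0.28 to 0.02, ATR from -0.25 to 0.15 and SLX4 from -0.17 to 0.01.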
